A study of Caenorhabditis elegans with 11 samples.

Results

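The nuclear hormone receptor genes of Caenorhabditis elegans that carry an nhr name were followed through adult life in worms kept on 2-deoxy-D-glucose (DOG), a glucose analogue that blocks glycolysis. All rows with a gene name starting with nhr- were taken, which gave 278 genes, and those whose counts over the libraries added up to 100 or more were kept, which left 190 genes among the 14773 genes that reached this minimum. The 11 libraries came from total RNA of whole wild-type animals of the strain N2 (var. Bristol), all on plates with 5 mM DOG, at 1 d, 5 d, 10 d and 20 d after the L4 larval stage, with 3 libraries at each of the first 3 ages and 2 at 20 d. The worms received DOG from the end of the L4 stage onwards and were fed heat-inactivated bacteria, they were washed daily and left to settle so that offspring could be removed, and each library pooled many animals. Untreated worms were not analysed here, so every change is a change with age under DOG and the part of DOG in it cannot be told apart from that of age. The labels do not say whether replicates of an age came from separate cultures, so that the p-values measure the spread between these libraries only.

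Nuclear hormone receptors are transcription factors with a zinc finger domain that binds DNA and another domain that, in many of them, binds a small lipophilic molecule such as a steroid, a fatty acid or a vitamin derivative, and that recruits co-activators or co-repressors. Nematodes have many more of them than insects or mammals. Most worm receptors belong to a branch that expanded from an ancestor related to the vertebrate receptor HNF4, while a smaller group has direct counterparts in flies and vertebrates. The ligands of most worm receptors are unknown, and those with an assigned role act in fat and propionate metabolism, in responses to toxins, metals and pathogens, and in moulting and development.

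The libraries held between 23648292 and 58499127 counts on genes, and replicates of an age correlated with r between 0.994 and 0.996 over genes on the scale of log2 CPM (counts scaled to a common library size). Replicate libraries differed by more than sampling noise in every pair, as their counts over genes varied at least 4.91 times more than Poisson sampling would give (the chi-square divided by its degrees of freedom), so that each was counted as a library of its own. Summed levels of marker genes of tissues, in CPM, differed between ages. The 8 intestine markers summed to 3298 to 3637 at 1 d, 1362 to 1613 at 5 d, 1865 to 2022 at 10 d and 492 to 499 at 20 d. The 6 markers of body wall muscle went from between 3647 and 3886 at 1 d to between 536 and 591 at 20 d. The 10 markers of germline and oocytes summed to between 8961 and 12260 in all libraries, but single genes changed. Of the 10, 8 were higher and 1 lower from 1 d to 5 d. None was higher in the later steps, with 7 lower from 5 d to 10 d and 8 from 10 d to 20 d. Of the 6 sperm markers at the count minimum, 5 fell from 1 d to 5 d (median log2 change -3.52) and 5 rose from 10 d to 20 d (2.20). The 8 neuron markers summed to between 306 and 335 at 1 d and to 487 in both libraries at 20 d, but 3 of them were higher and 3 lower at 20 d than at 1 d, with a median log2 change of -0.01. Since whole animals were sequenced, fewer cells of a type and less RNA per cell cannot be told apart for any gene described here.

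As a family the nhr genes shifted upwards with age under DOG. Between 1 d and 20 d, 89 of the 190 genes rose and 34 fell at an adjusted p under 0.01, from the quasi-likelihood test of edgeR and the Benjamini-Hochberg method over all 14773 genes. This is 46.8% higher and 17.9% lower, beside 38.5% of all genes tested that were higher and 38% that were lower. The median log2 change of the nhr genes was 0.36, against -0.01 for all genes tested. In none of these 123 nhr genes did the libraries of 1 d and 20 d overlap. Overlap was not counted over all genes tested, so this cannot be read as a trait of the family. Of the nhr genes called, 46 were at least 2-fold higher and 16 at least 2-fold lower, and 8 and 6, respectively, changed at least 4-fold. The shares of all genes tested at these folds were not counted, so these numbers have no background beside them.

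**Figure D1:**
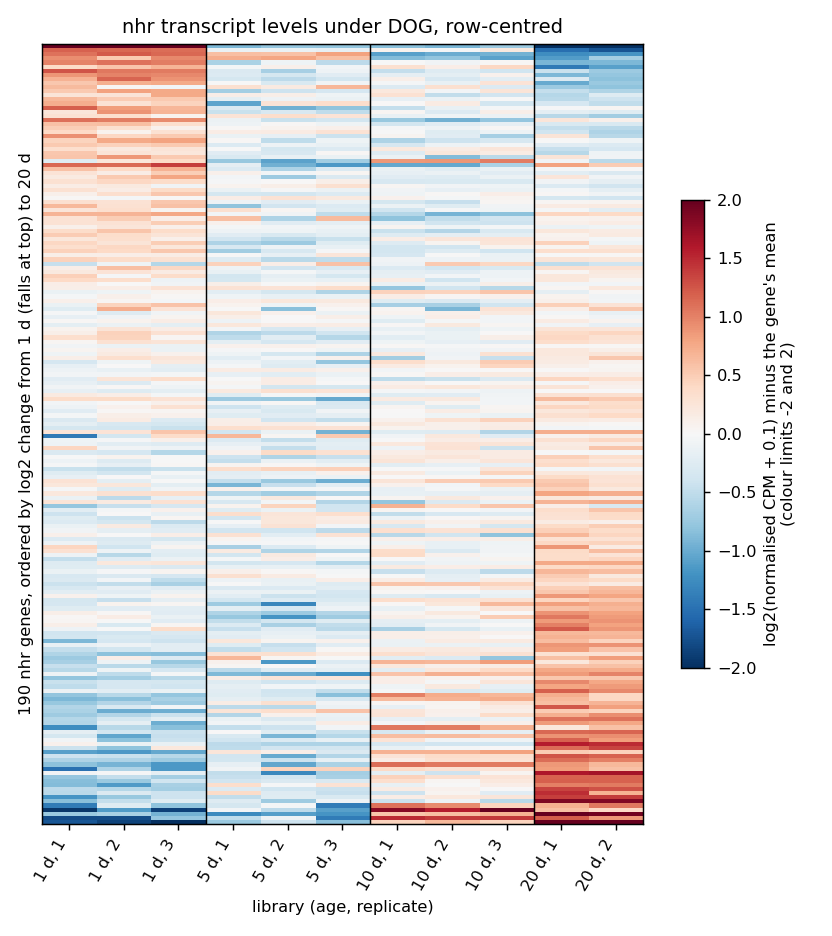
Transcript levels of the 190 nhr genes (rows) in the 11 libraries (columns, labelled by age and replicate), as log2(normalised CPM + 0.1) minus the mean of the gene, ordered by the change from 1 d to 20 d with the falling genes at the top. The libraries of an age look alike, and the 89 genes that rose by 20 d form a larger block than the 34 that fell.

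The direction of change differed between the steps. From 1 d to 5 d, 26 nhr genes rose (13.7%) and 61 fell (32.1%), while 34.5% of all genes tested were higher and 34.0% lower. In this step 3 of the 63 nhr genes with the fewest summed counts rose and 16 fell. Of the 63 with middle counts 6 rose and 24 fell, and of the 64 with the most counts 17 rose and 21 fell. The shares of all genes tested were not counted by depth. From 5 d to 10 d, 48 nhr genes rose (25.3%) and 14 fell (7.37%), beside 23.7% and 24.6% of all genes. From 10 d to 20 d, 85 rose (44.7%) and 18 fell (9.47%), beside 28.3% and 28.2% of all genes. The libraries of the compared ages did not overlap in any called nhr gene, with the exception of 1 of the 48 genes higher at 10 d than at 5 d. Here too, overlap was not counted over all genes tested. The median log2 changes of the family in these steps were -0.15, 0.14 and 0.32, where those of all genes tested were -0.02, 0.00 and 0.01. Adding the ages together, 162 nhr genes (85.3%) changed at any age, and 91.4% of all genes did. The nhr genes had a median of 1458 summed counts against 4249 for all genes tested, and these shares were not matched for counts. The scaling of the libraries moved the split of calls. With library sizes in place of TMM factors (trimmed mean of M-values, which assume that most genes keep their share), the median of all genes between 10 d and 20 d was 0.11 and 63.7% of all called genes were higher instead of 50%. The nhr genes then had 97 higher and 13 lower in this step and a median of 0.42, and between 1 d and 20 d they had 102 higher and 25 lower with a median of 0.51, beside a median of 0.14 for all genes. Between 1 d and 20 d, 57.4% of all called genes were then higher instead of 50.3%, and 80.3% of the called nhr genes instead of 72.4%.

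**Figure D2:**
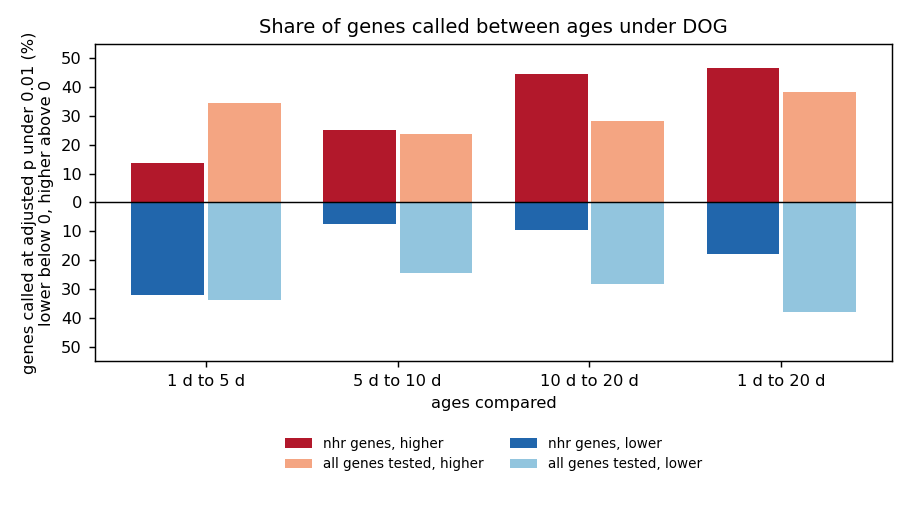
Share of genes called higher (above 0) and lower (below 0) in the 4 comparisons of ages, in percent of the 190 nhr genes (dark bars) and of the 14773 genes tested (light bars), at an edgeR adjusted p under 0.01. In the last step 44.7% of the nhr genes were higher and 9.47% lower, beside 28.3% and 28.2% of all genes.

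Single genes took 26 different courses over the 3 steps. The most common was a rise between 10 d and 20 d alone, in 35 genes, followed by 32 genes that were called in no step, 19 that fell between 1 d and 5 d alone, 18 that fell in this first step and rose in the last, and 17 that rose between 5 d and 10 d alone. Altogether 80 genes rose in at least 1 step and fell in none (42.1%), and 31 fell in at least 1 step and rose in none (16.3%), beside 27.6% and 27.9% of all genes tested. A fall between 1 d and 5 d with a rise in a later step was found in 35 nhr genes (18.4%) and in 14.6% of all genes tested. Of these 35, 12 ended higher at 20 d than at 1 d, 6 ended lower and 17 were not called between these ages. In all 3 steps 18 nhr genes (9.47%) were called, beside 23% of all genes tested. These shares, too, were not matched for counts. The highest mean was found at 20 d in 98 genes and at 1 d in 51, with 19 genes highest at 5 d and 22 at 10 d. The age of the highest mean was not counted over all genes tested. By Spearman's rho with age, averaged over the 54 ways to choose 1 library per age, 57 nhr genes (30%) had a monotonically rising profile with rho of at least 0.75 and 19 (10.0%) a falling one, beside 22.6% and 22.1% of all genes.

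Most nhr genes were weakly expressed. The median level was 1.87 RPKM (normalised CPM, that is CPM after the TMM factors, per kilobase of exon, computed here) at 1 d, 1.68 at 5 d, 1.84 at 10 d and 2.66 at 20 d, whereas the median of all genes tested lay between 6.20 and 7.30. A mean of at least 1 RPKM was reached by 134 nhr genes at 1 d, 125 at 5 d, 136 at 10 d and 151 at 20 d. The family together took 0.155% to 0.168% of the counts at 1 d, 0.145% to 0.150% at 5 d, 0.153% to 0.157% at 10 d and 0.187% to 0.193% at 20 d, so that the libraries of 20 d lay above all others. The ratio of the highest to the lowest age mean had a median of 1.99 over the family and 2.08 over all genes. Of the 63 genes with the fewest counts, 101 to 875 in all libraries together, 47 changed at any age, and of the 64 genes with the most counts 59 did.

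The strongest expression, as the mean RPKM over all libraries, was that of nhr-49 with 65.7, followed by nhr-114 with 46.0, nhr-86 with 36.4, nhr-23 with 29.9 and nhr-66 with 26.1. At 1 d the order was different, since nhr-114 then stood at 149 ± 17.2 RPKM and nhr-49 at 52.6 ± 1.62 (SD, n = 3). At 20 d nhr-114 had 2.96 ± 0.08 RPKM and nhr-49 79.4 ± 0.43 (SD, n = 2). At 1 d nhr-114 alone supplied 13% to 15.1% of all nhr counts, and at 20 d 0.251% to 0.257%.

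The receptors of propionate and vitamin B12 metabolism held the largest fall of the family. When vitamin B12 is scarce, worms degrade propionate by an alternative shunt, which NHR-10 and NHR-68 switch on together, and NHR-114 controls genes of the methionine cycle and protects the germline on diets low in this vitamin. The level of nhr-114 was 257, 212 and 210.3 normalised CPM at 1 d, 12.7, 13.9 and 13.7 at 5 d, 13.3, 12.7 and 14.4 at 10 d, and 4.59 and 4.41 at 20 d. The 1 d libraries stood far above all others, the 5 d and 10 d libraries overlapped, and those of 20 d were lowest. Its log2 change was -4.07 ± 0.07 (SE, edgeR adjusted p = 7.3e-19) between 1 d and 5 d and -1.59 ± 0.11 (SE, edgeR adjusted p = 2.8e-10) between 10 d and 20 d, which made -5.65 ± 0.10 (SE, edgeR adjusted p = 7.8e-20) between 1 d and 20 d, a 50.2-fold lower level. Between 5 d and 10 d it was 0.01 ± 0.09 (SE, edgeR adjusted p = 0.96).

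The level of nhr-68 was 33.1, 32.5 and 31.7 normalised CPM at 1 d, 13.3, 13.3 and 13 at 5 d, 15.3, 14.2 and 16.8 at 10 d, and 5.05 and 4.35 at 20 d. It fell in the first step by 1.29 and in the last by 1.72 on the log2 scale, to a change of -2.79 ± 0.08 (SE, edgeR adjusted p = 1.8e-16) over the whole time, with no overlap between 1 d, the middle ages and 20 d. A small rise of 0.23 between 5 d and 10 d (edgeR adjusted p = 0.0074) was not called without any of 6 single libraries or with only the 2 ages compared, and without DOG 10 d replicate 3 it was 0.16. The partner nhr-10 rose instead, with 17.4, 17.3 and 17.0 normalised CPM at 1 d, 18.6, 18.7 and 18.1 at 5 d, 23.4, 22.7 and 23 at 10 d, and 27.1 and 27.7 at 20 d. The 20 d libraries of nhr-10 were the highest, and the change between 1 d and 20 d was 0.67 ± 0.05 (SE, edgeR adjusted p = 4.6e-10).

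The enzymes of the propionate shunt were all lower at 20 d than at 1 d. The level of acdh-1, the acyl-CoA dehydrogenase that starts the shunt, was 1117, 1155 and 1158 normalised CPM at 1 d, 411, 417 and 401 at 5 d, 238, 226 and 280.4 at 10 d, and 25 and 21.4 at 20 d. Each age lay below the one before it without overlap, and the change between 1 d and 20 d was -5.63 ± 0.09 (SE, edgeR adjusted p = 4.9e-20). The hydratase gene ech-6 changed by -2.73 ± 0.05 (SE, edgeR adjusted p = 6.0e-19), the hydrolase gene F09F7.4 (hach-1) by -1.97 ± 0.05 (SE, edgeR adjusted p = 3.3e-17), the dehydrogenase gene Y38F1A.6 (hphd-1) by -4.15 ± 0.08 (SE, edgeR adjusted p = 2.8e-19), and the gene of the last step, alh-8, by -1.34 ± 0.04 (SE, edgeR adjusted p = 1.4e-15). All 5 fell from 1 d to 5 d and from 10 d to 20 d, whereas from 5 d to 10 d 4 fell and alh-8 rose by 0.17 (edgeR adjusted p = 0.00073). The shunt enzymes and their receptors are active in the intestine, among other tissues, and the summed level of the 8 intestine markers fell as well, with 5 of 8 lower and 1 higher from 1 d to 5 d and 6 of 8 lower and none higher from 1 d to 20 d, at a median log2 change of -1.70. From 10 d to 20 d, when nhr-114 and nhr-68 fell, 3 of the 8 were higher and 4 lower, at a median of -0.28. The sum, in CPM by library size, followed the protease gene asp-1, which had 2723 to 2966 normalised CPM at 1 d and 214.7 and 215.4 at 20 d. The part of intestinal RNA in the fall of nhr-114 and nhr-68 was not tested.

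**Figure D3:**
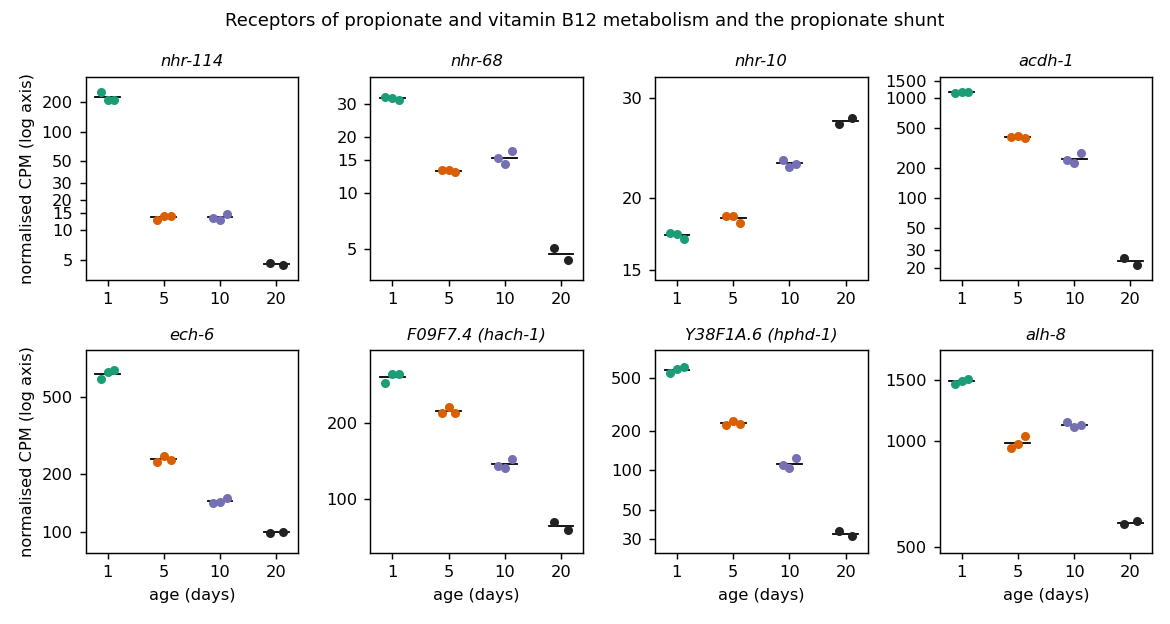
Normalised CPM (log axis, a different range in each panel) of nhr-114, nhr-68, nhr-10 and the 5 propionate shunt genes in each library by age in days, with points for libraries and bars for the mean of an age. All panels except nhr-10 end lowest at 20 d, with acdh-1 between 21.4 and 25 there, and nhr-10 ends highest at 27.1 and 27.7.

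The receptors of fat metabolism and dietary restriction changed in both directions, with 5 of 8 higher and 2 lower at 20 d than at 1 d and a median log2 change of 0.38, beside 38.5% and 38% of all genes tested. NHR-49 activates genes of fatty acid desaturation and oxidation with the co-activator MDT-15. Its gene had 114.5, 113.9 and 108 normalised CPM at 1 d, 143, 134 and 136 at 5 d, 149, 153 and 151 at 10 d, and 170.1 and 169 at 20 d. Every age lay above the one before it, and the change from 1 d to 20 d was 0.60 ± 0.04 (SE, edgeR adjusted p = 1.7e-11). The middle step, 0.13 from 5 d to 10 d (edgeR adjusted p = 0.0025), was not called without DOG 5 d replicate 2 (0.11), DOG 5 d replicate 3 (0.12) or DOG 10 d replicate 2 (0.12). The co-activator gene mdt-15 had 139 to 145 normalised CPM at 1 d and 222 in both libraries at 20 d, a change of 0.64 ± 0.04 (SE, edgeR adjusted p = 5.8e-12).

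Genes of NHR-49 partners were called in both directions. The level of nhr-80, whose product promotes desaturation to oleic acid and is needed for the long life of worms without a germline, was 10.3, 9.35 and 9.40 normalised CPM at 1 d, 5.70, 6.08 and 5.95 at 5 d, 5.81, 6.0 and 6.54 at 10 d, and 4.47 and 4.89 at 20 d. The 1 d libraries were the highest and those of 20 d the lowest, at -1.04 ± 0.09 (SE, edgeR adjusted p = 2.3e-09). nhr-13 rose slightly to 18.4 to 20.3 normalised CPM at 5 d and then went down to 13 and 12.8 at 20 d, below all 1 d libraries at 16.2 to 17.0, with -0.37 ± 0.07 (SE, edgeR adjusted p = 3.5e-05) over the whole time. The rise, 0.21 from 1 d to 5 d (edgeR adjusted p = 0.004), was not called without DOG 1 d replicate 2 (0.18), DOG 1 d replicate 3 (0.21) or DOG 5 d replicate 2 (0.17), nor with no count filter (0.21) or with only the 2 ages compared (0.17). nhr-66 had its peak at 5 d, with 97.3, 95.5 and 90.6 normalised CPM at 1 d and 157, 152 and 152 at 5 d. From there it fell to 130.4 to 139 at 10 d, and the 20 d libraries with 119 and 120.5 still lay above those of 1 d, at 0.34 ± 0.04 (SE, edgeR adjusted p = 1.3e-07).

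The other fat receptors were higher at 20 d or not called. The gene nhr-62, which is needed for the longer life under dietary restriction, had 7.68, 8.37 and 8.21 normalised CPM at 1 d, 8.80, 7.97 and 8.75 at 5 d, 11.5, 10.3 and 12.5 at 10 d, and 20.6 and 18.1 at 20 d. The 20 d libraries lay far above the rest and the change from 1 d was 1.25 ± 0.09 (SE, edgeR adjusted p = 8.6e-11). nhr-76, which acts in the fat loss driven by serotonin, had a peak of 24.5 to 26.4 normalised CPM at 5 d after 13.5 to 14 at 1 d, and stayed higher at 20 d by 0.41 ± 0.08 (SE, edgeR adjusted p = 6.8e-05). nhr-64 rose by 0.43 ± 0.07 (SE, edgeR adjusted p = 2.3e-05) over the whole time. nhr-69 fell from 1 d to 5 d by 0.34 and rose from 10 d to 20 d by 0.39, and its libraries of 1 d and 20 d overlapped, at 0.09 ± 0.08 (SE, edgeR adjusted p = 0.31).

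Known targets of NHR-49 and NHR-80 did not share 1 course. acs-2, an acyl-CoA synthetase gene of mitochondrial fatty acid oxidation, had 41.2 to 42.0 normalised CPM at 1 d and 189 and 203 at 20 d, and rose in every step, by 2.24 ± 0.06 (SE, edgeR adjusted p = 1.8e-17) in all. The desaturase gene fat-6 fell from between 246 and 269 at 1 d to 106 in both libraries at 20 d, at a log2 change of -1.26 ± 0.06 (SE, edgeR adjusted p = 7.5e-14), while fat-5 was slightly higher by 0.27 ± 0.07 (SE, edgeR adjusted p = 0.0016). The flavin monooxygenase gene fmo-2 had 1.42, 1.37 and 1.67 normalised CPM at 1 d, 11.2, 11.2 and 11.9 at 5 d, 45.9, 42.5 and 52.8 at 10 d, and 1.21 and 0.738 at 20 d. It thus had a peak at 10 d, after which it fell by 5.61 on the log2 scale, to libraries that lay below those of 1 d but were not called against them, at -0.64 ± 0.23 (SE, edgeR adjusted p = 0.016). The desaturase gene fat-7 did not reach the count minimum.

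The receptors with counterparts outside nematodes mostly rose. Of 9 genes, 8 were higher at 20 d than at 1 d and none lower, with a median log2 change of 0.96, where 38.5% of all genes tested were higher. All role lists were chosen with earlier results of these data known, so their shares are descriptions and not tests of a group. The genes nhr-23, nhr-25, nhr-67, nhr-85 and nhr-6 of this list also belong to the list of developmental receptors, of which 6 of 8 were higher and 2 lower, where 38% of all genes tested were lower. NHR-67 is the counterpart of Tailless and acts in the anchor cell and uterus of the larva. Its gene was near the limit of detection in young adults, with 12, 18 and 17 counts at 1 d, 9, 12 and 11 at 5 d, 55, 65 and 84 at 10 d, and 253 and 239 at 20 d. Both libraries of 20 d were highest, those of 10 d lay between them and the younger worms, and the log2 changes were 2.06 ± 0.21 (SE, edgeR adjusted p = 1.0e-07) from 5 d to 10 d, 1.47 ± 0.13 (SE, edgeR adjusted p = 8.1e-09) from 10 d to 20 d and 3.05 ± 0.17 (SE, edgeR adjusted p = 3.0e-12) from 1 d to 20 d.

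NHR-25, the counterpart of the fly factor Ftz-F1, is required in epidermal cells and for moulting. Its gene had 2.36, 2.19 and 1.85 normalised CPM at 1 d, 3.79, 2.02 and 2.70 at 5 d, 9.32, 8.95 and 8.79 at 10 d, and 7.84 and 6.67 at 20 d. The libraries of 1 d and 5 d overlapped, and the rise fell into the step from 5 d to 10 d, at 1.68 ± 0.14 (SE, edgeR adjusted p = 6.4e-09). The 20 d libraries stood between, closer to those of 10 d, at 1.78 ± 0.16 (SE, edgeR adjusted p = 3.6e-09) from 1 d. NHR-23, the counterpart of the receptor ROR, is required for moulting too, but its gene kept a narrow range, with 65.1 to 70.5 normalised CPM at 1 d, 80.4 to 84.6 at 5 d, 72.6 to 76 at 10 d and 75.5 to 78.5 at 20 d. The change of nhr-23 from 1 d to 20 d, 0.19 ± 0.04 (SE, edgeR adjusted p = 0.00044), was not called without DOG 20 d replicate 2 (0.16), which would leave 7 of the 9 conserved receptors higher. The early embryonic gene nhr-2 had its highest libraries at 10 d, with 23.8, 22.8 and 20.5 normalised CPM at 1 d, 32.2, 29.5 and 27 at 5 d, 47.4, 46.9 and 43.8 at 10 d, and 39.0 and 36.3 at 20 d. It rose in the step from 5 d to 10 d by 0.64 ± 0.06 (SE, edgeR adjusted p = 5.6e-08) and was higher at 20 d than at 1 d by 0.76 ± 0.07 (SE, edgeR adjusted p = 6.9e-09). Its change from 10 d to 20 d, -0.29, was not called with library size scaling (-0.19) or without DOG 20 d replicate 2 (-0.24).

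The summed levels of the markers of embryos and of moulting epidermis were highest at 10 d. The 7 markers of moulting epidermis summed to 44.3 to 49.7 CPM at 1 d, 30.1 to 38.4 at 5 d, 138 to 144 at 10 d and 94.0 to 105 at 20 d, and 4 of 7 rose and none fell from 5 d to 10 d. At 10 d the sum rested mostly on noah-1, at 78.8 to 82.6 normalised CPM, and mlt-11, at 39.8 to 41.9. From 1 d to 20 d 3 of the 7 were higher and 4 lower, with a median log2 change of -0.29. From 10 d to 20 d none of the 7 rose and 3 fell, while nhr-67 rose. The 8 embryo markers, among which hlh-27 did not reach the count minimum, summed to 5.93 to 6.71 at 1 d, 6.28 to 7.92 at 5 d, 13.2 to 13.7 at 10 d and 10.6 to 11.2 at 20 d, with 4 of 8 higher and none lower from 5 d to 10 d. The part of embryos or larvae in the rises of nhr-25, nhr-67 and nhr-2 at 10 d was not tested.

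Further conserved receptors rose late. nhr-41, related to the vertebrate testicular receptors, had 2.40, 2.31 and 2.14 normalised CPM at 1 d, 2.89, 2.63 and 2.57 at 5 d, 3.94, 3.74 and 3.53 at 10 d, and 9.10 and 8.60 at 20 d. Both 20 d libraries were the highest, with 1.25 ± 0.09 (SE, edgeR adjusted p = 5.2e-10) in the last step and 1.96 ± 0.10 (SE, edgeR adjusted p = 1.3e-12) in all. nhr-6, the counterpart of the NR4A receptors, acts in the development of the spermatheca and had 1.89, 1.55 and 2.21 normalised CPM at 1 d, 4.51, 3.45 and 4.31 at 5 d, 3.18, 3.51 and 3.85 at 10 d, and 7.13 and 7.36 at 20 d. It rose from 1 d to 5 d by 1.10 ± 0.15 (SE, edgeR adjusted p = 1.9e-06) and from 10 d to 20 d by 1.04 ± 0.12 (SE, edgeR adjusted p = 2.6e-07), and the libraries of 5 d and 10 d overlapped.

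Of the 9, 3 fell from 1 d to 5 d and rose afterwards. In this first step 34.0% of all genes tested were lower, and 14.6% fell in it and rose in a later step. The gene of the E75 counterpart NHR-85, which acts in the timing of larval development, had 3.0, 2.80 and 2.34 normalised CPM at 1 d, 1.77, 1.61 and 1.80 at 5 d, 2.87, 3.17 and 2.76 at 10 d, and 5.22 and 4.89 at 20 d. The level of nhr-91, the counterpart of the germ cell nuclear factor, was 3.04, 3.35 and 2.73 normalised CPM at 1 d, 1.73, 1.27 and 1.80 at 5 d, 3.25, 3.17 and 4.31 at 10 d, and 6.31 and 5.5 at 20 d. In both genes the 5 d libraries were the lowest and the 20 d libraries the highest, with changes from 1 d to 20 d of 0.92 ± 0.12 (SE, edgeR adjusted p = 7.5e-07) for nhr-85 and 0.96 ± 0.14 (SE, edgeR adjusted p = 4.8e-06) for nhr-91. nhr-8, which acts in cholesterol balance and resistance to toxins, fell from between 6.22 and 7.95 normalised CPM to between 3.75 and 4.34 at 5 d, at -0.83 ± 0.10 (SE, edgeR adjusted p = 7.0e-07). It then rose in both later steps to 7.52 and 7.76 at 20 d, within the range of 1 d, and the difference between 1 d and 20 d was 0.10 ± 0.10 (SE, edgeR adjusted p = 0.36). nhr-48 stayed at 28.1 to 31.1 until 5 d and was at 37.5 to 40.4 afterwards, a change of 0.36 ± 0.05 (SE, edgeR adjusted p = 1.5e-06) from 1 d to 20 d.

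**Figure D4:**
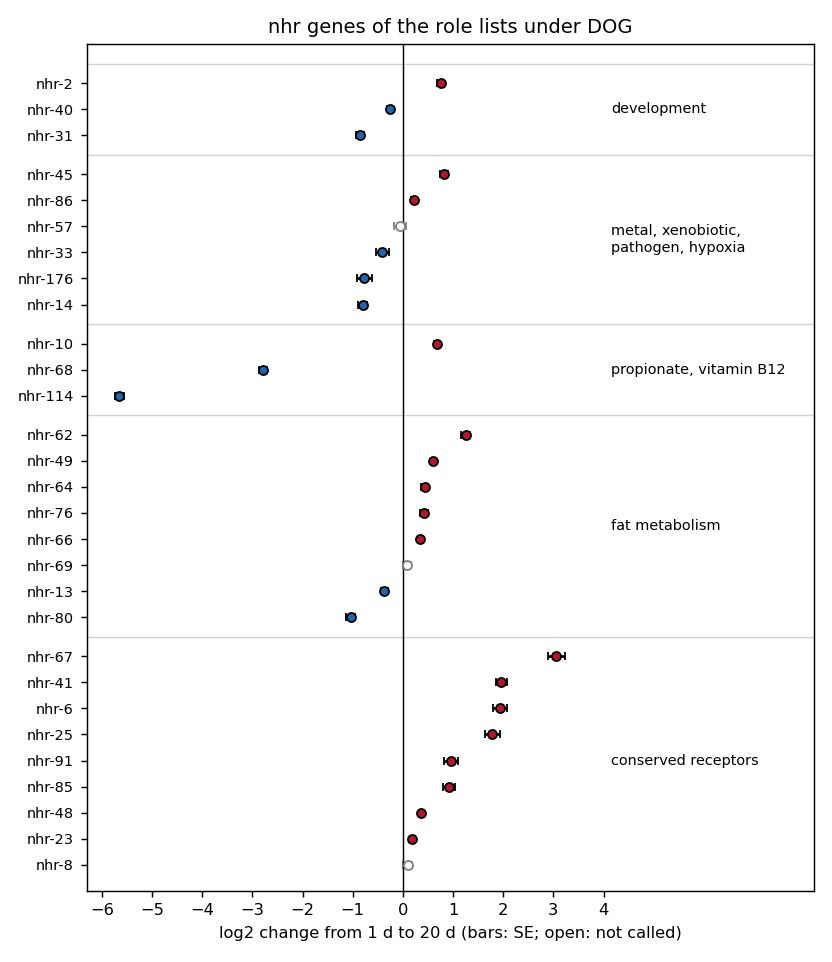
Log2 change from 1 d to 20 d of the nhr genes of the 5 role lists, with bars for the standard error and open points for genes that were not called. A gene of 2 lists is drawn once, so that nhr-8 and 5 developmental genes stand with the conserved receptors, where 8 of 9 were higher, while nhr-114 lies at -5.65 and nhr-68 at -2.79. The lists were chosen with earlier results of these data known.

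Of the other developmental receptors, nhr-31, required for the tubule of the excretory cell, had 41.3, 38.8 and 37 normalised CPM at 1 d, 17.7, 14 and 14.8 at 5 d, 11.3, 9.71 and 11.1 at 10 d, and 22.6 and 20.5 at 20 d. It fell until 10 d and rose by 1.01 ± 0.08 (SE, edgeR adjusted p = 5.1e-09) to 20 d, where both libraries still lay below those of 1 d, at -0.85 ± 0.08 (SE, edgeR adjusted p = 7.5e-09). nhr-40, which acts in muscle development, was slightly lower at 20 d than at 1 d, at -0.26 ± 0.07 (SE, edgeR adjusted p = 0.0014), and was not called with library size scaling (-0.11) or without DOG 20 d replicate 1 (-0.24).

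The receptors of metal, toxin, pathogen and oxygen responses moved in both directions, with 2 of 7 higher and 3 lower at 20 d than at 1 d and a median log2 change of -0.06, beside 38.5% and 38% of all genes tested. NHR-14 limits iron uptake in the intestine. Its gene had 18.8, 16.7 and 14.2 normalised CPM at 1 d, 13.6, 14 and 14.2 at 5 d, 13.1, 12.43 and 13.6 at 10 d, and 9.59 and 9.18 at 20 d. The libraries of 1 d and 5 d overlapped by a narrow margin, those of 20 d were the lowest, and the change was -0.80 ± 0.09 (SE, edgeR adjusted p = 1.2e-07). Of the iron genes tied to it, the ferritin gene ftn-1 had 1.84 to 2.24 normalised CPM at 1 d, 83.9 to 99.2 at 5 d and 32.4 and 32.8 at 20 d, and the iron transporter gene smf-3 rose by 0.94 ± 0.14 (SE, edgeR adjusted p = 3.6e-06) from 1 d to 20 d. The first rise of ftn-1 was 5.52 ± 0.10 (SE, edgeR adjusted p = 3.1e-19).

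The zinc sensor NHR-33, now named HIZR-1, activates zinc transporter genes. Its own gene nhr-33 was close to the threshold, with -0.41 ± 0.14 (SE, edgeR adjusted p = 0.0099) from 1 d to 20 d. This call ended with library size scaling (-0.26), DESeq2 (-0.42), no count filter (-0.43), a replicate block (-0.40) and only the 2 ages compared (-0.42), and without any single library other than DOG 1 d replicate 2, at values between -0.49 and -0.33. Without it 2 of the 7 genes would be lower. Of its targets cdf-2 fell by 1.07 on the log2 scale and ttm-1 rose by 0.26 ± 0.05 (SE, edgeR adjusted p = 8.1e-05).

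nhr-57, a gene induced by low oxygen through HIF-1, had 3.86, 3.9 and 4.33 normalised CPM at 1 d, 4.33, 4.30 and 4.57 at 5 d, 2.02, 2.67 and 2.37 at 10 d, and 3.65 and 4.12 at 20 d. Only the 10 d libraries stood apart, below all others, at -0.90 ± 0.12 (SE, edgeR adjusted p = 2.6e-06) from 5 d to 10 d and 0.72 ± 0.12 (SE, edgeR adjusted p = 3.6e-05) back to 20 d, and 1 d and 20 d overlapped. nhr-86, which acts in pathogen defence in the intestine, had its peak at 5 d with 58.2 to 63.6 normalised CPM, after 42.7 to 45.4 at 1 d, and was at 51.1 and 51.5 at 20 d, with 0.22 ± 0.05 (SE, edgeR adjusted p = 0.00025) over the whole time. nhr-45 had 9.87 to 11.2 at 1 d, fell below this at 5 d, and rose in the last step by 1.08 ± 0.07 (SE, edgeR adjusted p = 2.8e-10) to 19.2 and 18.2. nhr-176, which acts in the breakdown of the drug thiabendazole, fell from between 3.22 and 4.14 at 1 d to between 1.61 and 2.38 at 5 d, and was lower at 20 d than at 1 d, at -0.77 ± 0.15 (SE, edgeR adjusted p = 9.6e-05). Its target cyp-35D1, a cytochrome P450 gene, was not called between 1 d and 20 d, at 0.16 ± 0.17 (SE, edgeR adjusted p = 0.39).

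The 8 genes that rose at least 4-fold from 1 d to 20 d were nhr-214, nhr-127, nhr-67, nhr-150, nhr-221, nhr-178, nhr-170 and nhr-207, of which nhr-221, nhr-170 and nhr-207 were named after their values were seen. Apart from nhr-67 none of them is in the role lists. The count minimum was a sum over all libraries, so a gene could pass it through the ages of its high level alone. With 101 counts in all, nhr-207 had 2, 4 and 4 at 1 d and 37 and 21 at 20 d. The counts of nhr-170 were 10, 20 and 31 at 1 d and 173 and 191 at 20 d, and nhr-221 had 111 in all. nhr-214 had 1, 1 and 0 counts at 1 d, 5, 8 and 5 at 5 d, 21, 28 and 29 at 10 d, and 240 and 234 at 20 d. It was almost undetected at 1 d and highest in both 20 d libraries, and it rose in all 3 steps, by 2.79 ± 0.17 (SE, edgeR adjusted p = 4.7e-11) from 10 d to 20 d. With 2 counts at 1 d and 474 at 20 d, the ratio of normalised levels was 189, with an exact 95% interval of 51.9 to 1562 that covers counting error only. nhr-127 had 0, 0 and 4 counts at 1 d, 4, 7 and 1 at 5 d, 34, 36 and 44 at 10 d, and 40 and 33 at 20 d. It rose between 5 d and 10 d by 2.62 ± 0.43 (SE, edgeR adjusted p = 3.5e-05) and was not called after that. Between 1 d and 20 d the change of 3.77 ± 0.59 (SE, edgeR adjusted p = 1.0e-05) depended on the 4 counts in DOG 1 d replicate 3, without which the other 1 d libraries are at 0 and the fitted value of 7.63 sets no bound. Without DOG 5 d replicate 2 the change between 5 d and 10 d was 3.25.

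Some genes had their peak at 10 d. nhr-150 had 1, 5 and 2 counts at 1 d, 12, 9 and 5 at 5 d, 72, 68 and 133 at 10 d, and 42 and 39 at 20 d. The 10 d libraries were highest in normalised CPM too, with 1.54 to 2.48 against 0.626 to 0.736 at 20 d, a rise of 2.77 ± 0.30 (SE, edgeR adjusted p = 2.2e-07) followed by a change of -1.54 ± 0.24 (SE, edgeR adjusted p = 2.0e-05). From 1 d to 20 d the change was 2.97 ± 0.49 (SE, edgeR adjusted p = 1.6e-05), and without DOG 1 d replicate 2 it was 3.72. nhr-171 had 0.300, 0.457 and 0.515 normalised CPM at 1 d, 0.180, 0.127 and 0.193 at 5 d, 0.768, 0.770 and 0.859 at 10 d, and 0.351 and 0.225 at 20 d. It rose by 2.25 ± 0.32 (SE, edgeR adjusted p = 6.4e-06) from 5 d to 10 d and fell back by 1.48 on the log2 scale to 20 d. Its fall from 1 d to 5 d, at -1.39 ± 0.38 (SE, edgeR adjusted p = 0.0027), was not called without DOG 1 d replicate 3 (-1.23) or DOG 5 d replicate 2 (-1.22), nor with DESeq2 (-1.38).

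Others rose in the last step alone or in the first. nhr-178 had 0.60, 0.792 and 0.953 normalised CPM at 1 d, 0.938, 0.665 and 1.06 at 5 d, 0.820, 1.06 and 0.747 at 10 d, and 4.42 and 4.38 at 20 d. The first 3 ages overlapped and both 20 d libraries stood above them, at 2.33 ± 0.16 (SE, edgeR adjusted p = 3.9e-10) from 10 d to 20 d. nhr-3, a gene with a higher level, had 16.3, 13.9 and 13.8 normalised CPM at 1 d, 10.6, 9.90 and 9.94 at 5 d, 12.1, 11.8 and 11.6 at 10 d, and 45.5 and 43.5 at 20 d. After a fall from 1 d to 5 d it rose in the last step by 1.91 ± 0.06 (SE, edgeR adjusted p = 5.1e-15). In the first step, and among genes with 20 or more counts in each 5 d library, nhr-116 rose most, by 1.39 ± 0.20 (SE, edgeR adjusted p = 4.9e-06), from 0.772 to 1.49 normalised CPM at 1 d to 2.24 to 3.25 at 5 d. nhr-102 rose by 1.30 ± 0.12 (SE, edgeR adjusted p = 5.6e-09) from 1 d to 5 d, with 2.89 to 3.73 at 1 d and 7.0 to 8.69 at 5 d, and nhr-152 by 1.26 ± 0.22 (SE, edgeR adjusted p = 4.1e-05), with 0.487 to 0.541 at 1 d and 0.965 to 1.44 at 5 d. At 20 d these 3 genes were still higher than at 1 d, by 1.81, 1.38 and 1.73 on the log2 scale.

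**Figure D5:**
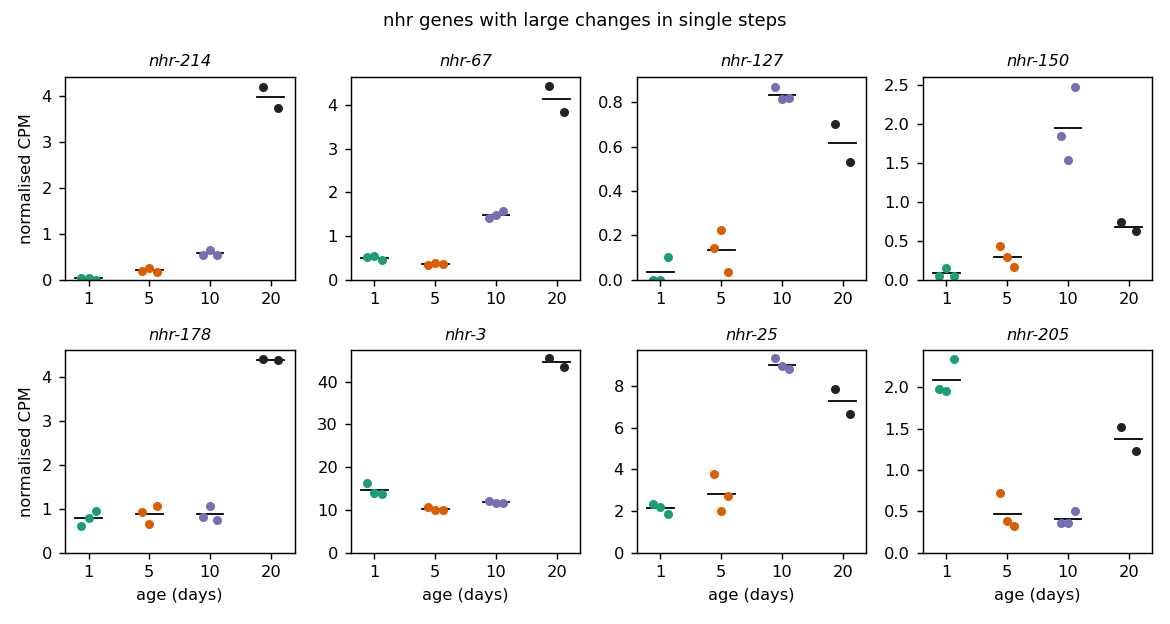
Normalised CPM of 8 nhr genes in each library by age in days, with points for libraries and bars for the mean of an age and a different range from 0 in each panel. nhr-214, nhr-67, nhr-178 and nhr-3 are highest at 20 d, nhr-127, nhr-150 and nhr-25 are highest at 10 d, and nhr-205 is highest at 1 d with a partial return at 20 d.

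The 6 genes that fell at least 4-fold from 1 d to 20 d were nhr-114, nhr-68, nhr-125, nhr-235, nhr-15 and nhr-99, of which nhr-235 and nhr-15 were named after their values were seen, with log2 changes of -2.41 ± 0.37 (SE, edgeR adjusted p = 7.1e-06) and -2.13 ± 0.20 (SE, edgeR adjusted p = 6.3e-09). nhr-125 had 9.39, 10.3 and 9.81 normalised CPM at 1 d, 6.67, 6.55 and 7.69 at 5 d, 2.00, 2.13 and 2.20 at 10 d, and 1.79 and 1.86 at 20 d. Its main fall lay between 5 d and 10 d, at -1.72 ± 0.10 (SE, edgeR adjusted p = 5.6e-11), the 1 d libraries were the highest, and over the whole time it changed by -2.43 ± 0.11 (SE, edgeR adjusted p = 1.0e-13). nhr-99 had 1.33, 1.52 and 1.67 normalised CPM at 1 d, 0.974, 1.08 and 0.965 at 5 d, 1.28, 1.11 and 1.36 at 10 d, and 0.316 and 0.417 at 20 d. Both 20 d libraries were below all others, at -1.76 ± 0.22 (SE, edgeR adjusted p = 1.1e-06) in the last step and -2.04 ± 0.22 (SE, edgeR adjusted p = 7.2e-08) from 1 d.

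In the first step nhr-205 and nhr-220 fell most after nhr-114. nhr-205 had 1.97, 1.95 and 2.34 normalised CPM at 1 d, 0.721, 0.38 and 0.322 at 5 d, 0.359, 0.362 and 0.504 at 10 d, and 1.52 and 1.24 at 20 d. It fell from 1 d to 5 d, at -2.17 ± 0.25 (SE, edgeR adjusted p = 2.1e-07), stayed low at 10 d and rose by 1.72 ± 0.24 (SE, edgeR adjusted p = 6.3e-06) to 20 d. The remaining difference to 1 d, -0.61 ± 0.20 (SE, edgeR adjusted p = 0.0085), was not called without any single library of 1 d (-0.68 to -0.52), without DOG 10 d replicate 1 (-0.61) or without DOG 20 d replicate 2 (-0.47), nor with library size scaling (-0.46), with DESeq2 (-0.62) or with the replicate number as a block (-0.56). nhr-220, which the newer annotation lists as a pseudogene, had 0.798 to 1.20 normalised CPM at 1 d and 0.190 to 0.361 at 5 d, at -1.88 ± 0.30 (SE, edgeR adjusted p = 1.8e-05). From 5 d to 10 d, and among genes with 20 or more counts in each 5 d library, nhr-104 fell most after nhr-125 and nhr-57, and its libraries went from 8.04 to 8.66 at 5 d to 4.82 to 5.64 at 10 d, at -0.67 ± 0.10 (SE, edgeR adjusted p = 7.5e-06). It then rose by 0.71 on the log2 scale back to 8.43 and 8.89 at 20 d.

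The nhr genes are unevenly spread over the genome. Chromosome V held 123 of the 190 (64.7%), where it held 19.8% of all genes tested, and the others were 8 on chromosome I, 10 on II, 5 on III, 26 on IV and 18 on X. From 1 d to 20 d more nhr genes rose than fell on V and on each other chromosome except III. On III 2 of the 5 nhr genes rose and 2 fell, with a median log2 change of -0.0. On V 52 of 123 nhr genes were higher and 22 lower at 20 d than at 1 d, with a median log2 change of 0.36, and on the other chromosomes together 37 of 67 were higher and 12 lower, with a median of 0.32. Of all genes tested on V, 36.8% were higher and 40.2% lower, with a median of -0.07. On the X chromosome 10 of 18 nhr genes fell from 1 d to 5 d and 2 rose, where 46.6% of all genes tested on X were lower and 19.0% higher.

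Many receptor genes lie side by side. In the gene order of the newer annotation WBcel235, 83 of the nhr genes, 74 of them on V, stood in 26 runs without another protein-coding gene between them. Of the 57 neighbouring pairs, 20 had both genes called between 1 d and 20 d, and in 17 of these both moved in the same direction, 14 upwards and 3 downwards. Of all pairs that the 123 called nhr genes can form, 59.7% moved in the same direction. The log2 changes of neighbours differed by a median of 0.58, and those of all pairs of nhr genes by 0.93. In the run nhr-56, nhr-128, nhr-103, nhr-18, nhr-126, nhr-134 and nhr-96, 6 of 7 genes were higher, with log2 changes from 0.30 to 1.84. In the run nhr-206, nhr-208, nhr-207, nhr-209, nhr-154, nhr-153 and nhr-136, 4 of 7 were higher and none lower. In the run nhr-161, nhr-163, nhr-139, nhr-140, nhr-162, nhr-107 and nhr-42, 2 of 7 were lower and none higher. Neighbours can be similar copies, and reads shared between copies or between overlapping genes could not be assigned, so that values of such genes are uncertain.

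Of the nuclear hormone receptors with other names, daf-12, the receptor of the steroid dafachronic acid, had 21.2, 18.3 and 19.1 normalised CPM at 1 d, 14.6, 14 and 13.8 at 5 d, 14, 14.4 and 15.4 at 10 d, and 24.1 and 25.4 at 20 d. It fell to 5 d and rose in the last step by 0.76 ± 0.06 (SE, edgeR adjusted p = 5.8e-09), and the 20 d libraries were the highest, at 0.34 ± 0.07 (SE, edgeR adjusted p = 7.3e-05) from 1 d. sex-1, which acts in sex determination, had its peak at 10 d with 66.8 to 71.3 normalised CPM, after 31.3 to 35.2 at 1 d, and was higher at 20 d by 0.81 ± 0.06 (SE, edgeR adjusted p = 1.1e-10). The neuronal receptor gene unc-55 stayed under 0.5 normalised CPM in all libraries and was not called, at 0.72 ± 0.39 (SE, edgeR adjusted p = 0.093), and fax-1 and odr-7 did not reach the count minimum.

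The minimum of 100 counts left out 88 nhr genes, of which 4 had no count in any library, 29 had 1 to 9 in all and 55 had 10 to 99. Just below the minimum were nhr-266 with 82 counts, nhr-250 with 88, nhr-239 with 91 and nhr-74 with 92, and just above it nhr-207 with 101, nhr-221, nhr-81 and nhr-235 with up to 122. 4 of the 190 genes, nhr-83, nhr-144, nhr-194 and nhr-220, are listed as pseudogenes in the newer annotation, and nhr-284 has no length there and hence no RPKM.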

How the data were processed

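RNA-seq libraries were made from total RNA of whole worms at 4 ages under DOG, and groups were taken from the sample labels. The reads, 50 bases long and single-end, were aligned by the authors to WS220 with TopHat, which the submitters' processing notes give as version 1.4.1, and htseq-count (mode union) assigned them to genes. The deposited table holds the resulting counts for each library, neither normalised nor filtered. Whether strand was used is not given in the sources used here, so antisense and overlapping genes are uncertain. Reads shared by near-identical receptor genes could not be split.

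For differences between ages the quasi-likelihood test of edgeR 4.0.16 was used in R 4.3.3 with limma 3.58.1, with TMM normalization, all 11 libraries in one fit, a minimum of 100 summed counts, Benjamini-Hochberg adjustment over 14773 genes and a threshold of 0.01. The common biological coefficient of variation was 4.14%, and the median over the nhr genes was 5.32%. TMM factors ran from 0.946 to 1.076. Normalised CPM are counts scaled to the TMM-adjusted library size, and RPKM divides these by the summed exon length in WBcel235, which was matched by sequence name for 189 of the 190 genes. WBcel235 differs from WS220, so no coordinates are given, and chromosomes are those listed with the counts. The monotony class followed the approach of the study. Python 3.11.15, numpy 2.4.6, pandas 2.3.3, scipy 1.17.1 and matplotlib 3.10.9 served for the other steps. The edgeR test and the monotony class were tested on simulated data.

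Genes were described by role lists, as the 3 largest rises and falls of each comparison (called, no overlap of libraries, 20 or more counts in each library of the age with the higher level), and as the 5 with the highest mean RPKM. The genes, lists and tests were chosen with earlier results of these data known. Alternatives were library size scaling, DESeq2 1.42.0, no count filter, a replicate block, only the ages compared, an adjusted p of 0.05, a rho of 0.9 and each library left out. Protein and promoter sequences were not used here.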

Additional observations from a re-analysis of the deposited data

How the results depend on the processing

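The counts of nhr genes called in each direction kept within 1.5 times their value under all alternatives run, with these exceptions: at an adjusted p under 0.05, 23 instead of 14 genes were lower at 10 d than at 5 d, and with a mean rho of at least 0.9 the rising profiles numbered 19 instead of 57 and the falling ones 6 instead of 19, because the threshold was stricter. No direction reversed. With DESeq2, 84 nhr genes were higher and 28 lower at 20 d than at 1 d (edgeR 89 and 34), and 72 were higher and 16 lower at 20 d than at 10 d (edgeR 85 and 18). Of the 124 called changes of the 43 named genes, 17 lost the call under at least 1 alternative, and the cause was not tested.

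With a replicate block, 88 genes were higher and 31 lower from 1 d to 20 d, 25 and 57 from 1 d to 5 d, 49 and 13 from 5 d to 10 d, and 83 and 16 from 10 d to 20 d, and 159 changed at any age. No pairing by replicate number was seen in the deviations from the mean of an age: none of the 15 same-numbered pairs had a correlation of deviations over 0.1 (range -0.114 to 0.0423), and 2 of 11 libraries were closest to their own number. The deviations of the 2 libraries of 20 d mirror each other, so the 15 values are not independent. A culture or batch shared between ages was not tested.

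The age of 20 d rests on 2 libraries, and genes with few counts at 1 d (nhr-214, nhr-127, nhr-150) have changes whose size depends on single reads. The lack of untreated worms, of a strand setting and of separate tissues limits all comparisons alike.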
